A study of Homo sapiens with 2 samples.

Results

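The guide strands of the miR-99/100 and miR-125 families are 5 miRNAs, chosen by name: hsa-miR-99a-5p, hsa-miR-99b-5p, hsa-miR-100-5p, hsa-miR-125a-5p and hsa-miR-125b-5p, written below without the species prefix. All 5 were among the 407 miRNAs of the count table. They were measured in the established cell line BT549, derived from human breast cancer, carrying an SNHG15-MS2 overexpression construct. SNHG15 is a long non-coding RNA, and MS2 is an RNA hairpin tag that the MS2 coat protein (MCP) holds. Lysate of these cells was rotated for 5 h at 4 °C with amylose resin coated with MCP fused to maltose binding protein (MBP-MCP, the pulldown) or with uncoated amylose resin (the control), and both resins were washed 3 times. Both groups carried the tagged SNHG15, so they differ by the MBP-MCP protein, and RNA bound to that protein cannot be told apart from RNA bound through SNHG15. Each resin gave 1 library, and no difference has a replicate check.

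MicroRNAs guide Argonaute proteins to messenger RNAs that pair with their seed, the bases near the 5′ end. The miR-99/100 family is known for repressing MTOR and IGF1R, and the miR-125 family, related to lin-4 of worms, for repressing ERBB2, ERBB3 and LIN28. Members of both families are made together with a let-7 miRNA from clusters of related structure, which arose by duplication.

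The mature sequences are shown because the families are defined by them and because near-identical members are hard to separate by reads. They are from RefSeq (GRCh38.p14), written 5′ to 3′, with the seed (bases 2 to 8) in capitals.
miR-99a-5p: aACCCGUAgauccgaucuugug
miR-100-5p: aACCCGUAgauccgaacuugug
miR-99b-5p: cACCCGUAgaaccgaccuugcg
miR-125a-5p: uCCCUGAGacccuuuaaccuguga
miR-125b-5p: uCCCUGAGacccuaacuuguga
miR-10a-5p: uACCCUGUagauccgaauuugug

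The first 3 share the seed ACCCGUA and the next pair shares CCCUGAG. miR-10a-5p is shown as a relative of miR-100-5p whose seed differs. Counting bases from 1 at the 5′ end, and writing the base of the first-named miRNA first, miR-99a-5p and miR-100-5p differ only by U16A. miR-99a-5p and miR-99b-5p differ by A1C, U11A, U16C and U21C. miR-125a-5p and miR-125b-5p share their first 13 bases and lie 3 edits apart. The sources used here do not say how reads that fit more than 1 member were assigned, so the split between miR-99a-5p and miR-100-5p is the least certain. Of the 357 miRNAs with names in the table, 321 were matched to RefSeq, and 0 others among those carried the seed of a member.

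The hairpins lie in 3 clusters of GRCh38, each on the strand of a host gene and in an intron of each host transcript that spans it in GENCODE 29 (1 of 14 for SPACA6). MIR99A (chromosome 21, 16539089 to 16539169), MIRLET7C (16539828 to 16539911) and MIR125B2 (16590237 to 16590325) lie on the plus strand within MIR99AHG, a lincRNA. MIR100 (chromosome 11, 122152229 to 122152308), MIRLET7A2 (122146522 to 122146593) and MIR125B1 (122099757 to 122099844) lie on the minus strand within MIR100HG, a processed transcript. MIR99B (chromosome 19, 51692612 to 51692681), MIRLET7E (51692786 to 51692864) and MIR125A (51693254 to 51693339) lie on the plus strand within the protein-coding gene SPACA6 and overlap SPACA6P-AS. The chromosome 19 cluster spans 728 bases, against 51237 on chromosome 21 and 52552 on chromosome 11. miR-125b-5p is made from both MIR125B1 and MIR125B2, and let-7a-5p from 3 hairpins, so their reads belong to no single cluster.

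In all, 202560 miRNA reads came from the MBP-MCP resin and 111414 from the bare resin. Of the 407 miRNAs, 161 had at least 20 reads in a library, all 5 members among them. As a check of the cell line, which is known as mesenchymal-like, 1 of 6 epithelial markers (the miR-200 family, miR-141-3p, miR-429 and miR-205-5p) was in the table, with 1 read in each library, while the mesenchymal list had 4 of 8 markers with 1156 and 560 reads in all. Of these, miR-221-3p alone gave 1014 and 451, and miR-199a-3p had 1 read in each library, so the sum is in the main a value of 1 miRNA. Of the other lists, 2 of 4 leukocyte markers (14 and 12 reads), 2 of 3 erythroid markers (133 and 64), 1 liver marker (4 and 0) and 1 of 3 muscle markers (9 and 1) were present. The neuronal list, with 3 of 3 markers, had 2014 and 1720 reads, more than the mesenchymal list. That is 9943 reads per 1000000 miRNA reads of the library (RPM) in the pulldown and 15438 in the control. Nearly all came from miR-9-5p (1215 and 1081 reads) and miR-128-3p (791 and 632), while miR-124-3p had 8 and 7. The part of these cells or miRNAs in the ratios of the members was not tested.

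The members together made up 7.79% of the pulldown reads (exact binomial 95% interval 7.67 to 7.91) and 8.39% of the control reads (8.23 to 8.56). miR-125b-5p, which is known for repressing BAK1, was by far the most abundant. It had 10378 reads (51234 RPM) on the MBP-MCP resin and 6539 reads (58691 RPM) on the bare resin, and ranked 6 and 5 among all miRNAs. miR-125a-5p, its seed mate, had 2550 reads (12589 RPM) and 1282 reads (11507 RPM). Its level was therefore several times below that of miR-125b-5p in both libraries.

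Within the other seed family miR-99b-5p led, with 1622 reads (8007 RPM, 95% interval 7624 to 8405) on the MBP-MCP resin and 868 reads (7791 RPM, 7283 to 8325) on the bare resin. miR-100-5p had 1202 reads (5934 RPM, 5604 to 6278) and 652 reads (5852 RPM, 5413 to 6318). miR-99a-5p, which differs from miR-100-5p by 1 base, was scarce, with 26 reads (128 RPM, 83.8 to 188) and 11 reads (98.7 RPM, 49.3 to 177). The order miR-125b-5p, miR-125a-5p, miR-99b-5p, miR-100-5p, miR-99a-5p was the same in both libraries, and no interval of a member overlapped that of its neighbour in the order. These miRNAs are 22 to 24 bases long, and RPM carries no length term. Intervals here and below cover counting error only, since the sources used here do not say how molecular identifiers were used.

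**Figure D1:**
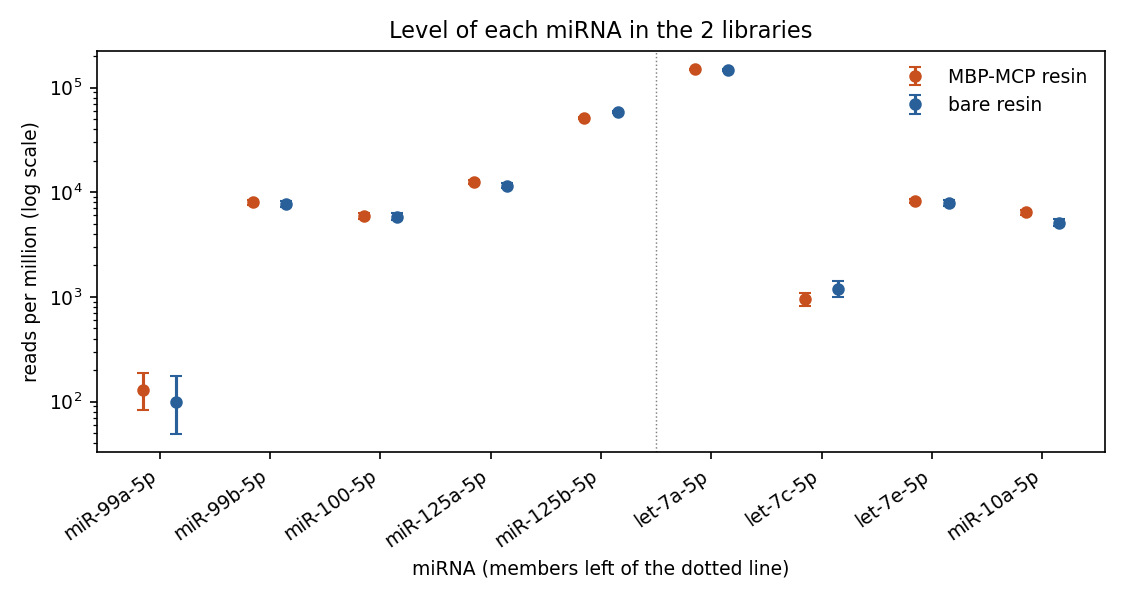
Level of each member, of the let-7 miRNAs of their clusters and of miR-10a-5p (x axis) in RPM on a log scale (y axis), 1 point per library with the exact 95% counting interval. The members run from miR-99a-5p at 128 and 98.7 RPM to miR-125b-5p at 51234 and 58691 RPM, and the points of both resins lie close together for each miRNA.

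The comparison of the resins asks which miRNAs associate with SNHG15. A ratio is the RPM in the pulldown over that in the control. Because RPM is a share of a library, a ratio below 1 does not show that less of the miRNA was on the MBP-MCP resin. Of the 5 members, 4 had a ratio above 1 with total reads and miR-125b-5p had one below 1. With the same scaling, 60.2% of the 161 miRNAs lay below 1. The ratio of miR-125a-5p was 1.09 (95% interval 1.02 to 1.17), or 0.13 on the log2 scale. That of miR-99b-5p was 1.03 (0.946 to 1.12), and that of miR-100-5p was 1.01 (0.921 to 1.12). The ratio of miR-99a-5p was 1.30 with an interval of 0.621 to 2.92, so a change of up to 1.61-fold lower or 2.92-fold higher was within its counting error. For miR-99b-5p and miR-100-5p the reads limit any difference to 1.12-fold at the upper bound, before the choice of scaling.

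No member was apart by 2-fold (0 of 5), a size that 5.59% of the 161 miRNAs reached. By 1.5-fold it was again 0 of 5, against 21.1%. The interval of 1 of 5 members, miR-125a-5p, lay above equality, against 11.2% of the 161 miRNAs. That of 1 of 5, miR-125b-5p (ratio 0.873, 0.846 to 0.901), lay below it, against 23.6%. Since deep counts give narrow intervals, the 4 members with at least 500 reads in each library were also set beside the 27 named miRNAs that met this minimum: 22.2% of those lay above equality and 37.0% below, against 1 of 4 members each way. The shares of members are near these backgrounds or too few to set apart from them. The control library was shallower, so the minimum of 500 reads was harder to meet there. It left out miRNAs such as miR-92a-3p (1319 and 452 reads, ratio 1.61). Shares, medians and ranks of the 27 therefore hold only within that selection. In the authors' deposited table no member is called, with p = 0.124 for miR-125a-5p (adjusted p 0.698) and p = 0.997 for miR-125b-5p (adjusted p 1). The scaling behind these edgeR p-values is not known here, so they need not be tests of the ratios with total reads. Under TMM factors, another scaling of the libraries, the log2 ratio of miR-125b-5p was −0.00095.

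The median log2 ratio of the members was 0.040, against −0.16 for all 161 miRNAs and −0.014 for the 27 deeply read ones. Under TMM factors, DESeq2 size factors and totals without the 5 most abundant miRNAs, the median of the 161 miRNAs moved by 0.19, 0.28 and 0.12, and the members moved with it. The median of the members lay 0.20 above that of the 161, a distance that a factor common to all miRNAs of a library cannot change. It lay much nearer to the median of the 27 deeply read miRNAs, which include 4 of the 5 members. The direction of miR-125b-5p rested on the scaling: its log2 ratio was −0.20 with total reads, −0.072 without the 5 most abundant miRNAs, −0.00095 under TMM and 0.081 under DESeq2 size factors. That of miR-125a-5p was 0.13, 0.25, 0.32 and 0.41 in the same order. Since the 3 other scalings shift all miRNAs upward alike, a value above 0 with total reads could not fall below 0. miR-99b-5p and miR-100-5p had intervals above equality under those 3 other scalings, though not with total reads. So did 59.3% of the 27 deeply read miRNAs with TMM factors, 70.4% with DESeq2 size factors and 51.9% without the 5 most abundant miRNAs, so this is no result about these members. Among the 27 deeply read miRNAs, miR-125a-5p ranked 5 from the highest ratio, miR-99b-5p 8, miR-100-5p 10 and miR-125b-5p 19.

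**Figure D2:**
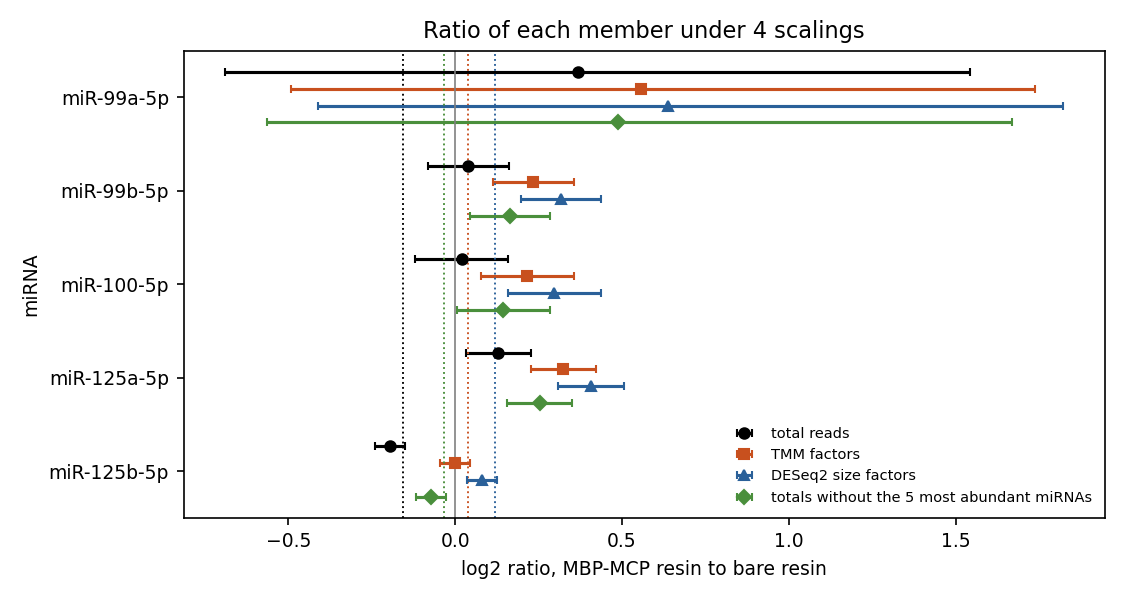
Log2 ratio of each member, MBP-MCP resin to bare resin (x axis), under total reads and 3 other scalings, with the 95% counting interval; dotted lines mark the median of the 161 miRNAs under the scaling of the same colour. miR-125a-5p lies to the right of 0 and of the matching median in all 4, which the upward shift common to all miRNAs fixes. miR-125b-5p passes from −0.20 to 0.081, and the interval of miR-99a-5p is the widest.

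**Figure D3:**
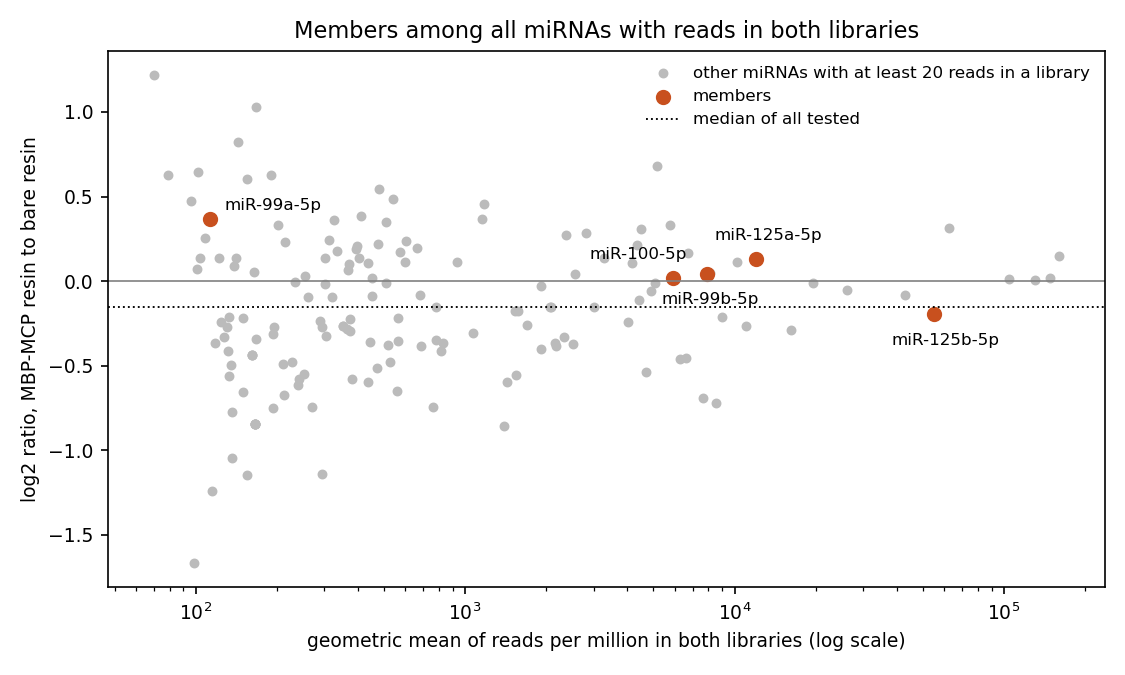
Log2 ratio with total reads (y axis) against the geometric mean of RPM in both libraries (x axis, log scale), 1 point per miRNA with at least 20 reads in a library and reads in both; members are coloured. The 4 abundant members lie between −0.20 and 0.13, inside the wider spread of other abundant miRNAs, such as miR-27a-3p at −0.72 and miR-92a-3p at 0.68. miR-99a-5p lies in the broad scatter at low levels.

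The ratio of one miRNA to another within a library does not depend on the scaling of the libraries, so members were also compared in pairs. miR-125b-5p had 5.10 reads for each read of its seed mate miR-125a-5p in the control library and 4.07 in the pulldown library. The balance thus stood 1.25-fold towards miR-125a-5p in the pulldown (95% interval 1.16 to 1.35). miR-125b-5p had 10.0 reads for each read of its cluster mate miR-100-5p in the control and 8.63 in the pulldown, a shift of 1.16-fold towards miR-100-5p (1.05 to 1.29). Together these were the 2 of 7 pairs of cluster or seed mates whose interval excluded equality. Of the 351 pairs of deeply read miRNAs, 69.8% did so, though some of the 7 pairs hold the scarce miR-99a-5p.

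The balance of the remaining mates did not differ between the resins beyond counting error. miR-99b-5p and miR-100-5p, seed mates from different chromosomes, stood at 1.35 and 1.33 reads of the first for each of the second, a ratio of 1.01 (0.892 to 1.15). miR-99b-5p and miR-125a-5p, which lie within 728 bases of each other, stood at 0.636 and 0.677, a ratio of 0.939 (0.844 to 1.05). The 3 pairs with miR-99a-5p had ratios of 1.26 to 1.49 and intervals too wide to show a difference, reaching from 0.711 to 3.34 against miR-125b-5p. Over all 10 pairs of members, the 3 added after the data were seen included, 3 intervals excluded equality, and each was a pair with miR-125b-5p. The third was with miR-99b-5p, 1.18 (1.08 to 1.29). Among the 4 deeply read members this is 3 of 6 pairs, against 69.8% of the 351 pairs of the 27 deeply read miRNAs. Of the 26 other deeply read miRNAs, 16 gained on miR-125b-5p in the pulldown by more than counting error and 6 lost on it.

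**Figure D4:**
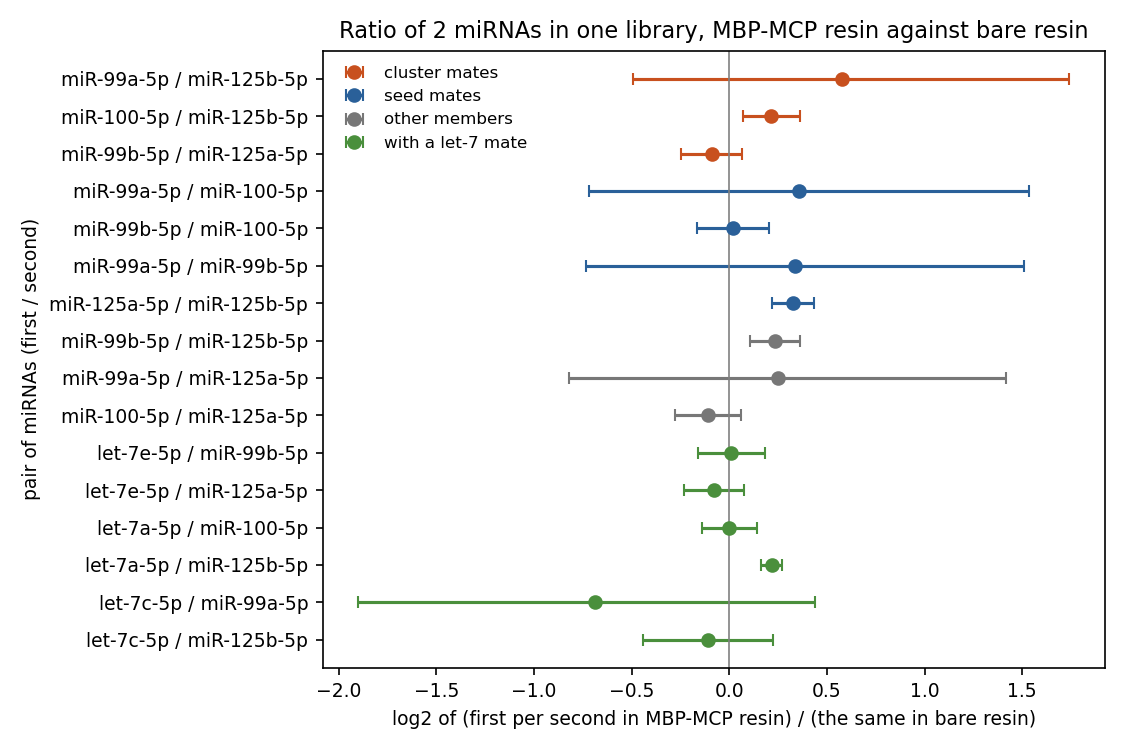
Log2 of the reads of one miRNA per read of another in the MBP-MCP library over the same in the bare resin library (x axis), with exact 95% intervals, for 16 pairs (y axis) coloured by their relation. Pairs of miR-125b-5p with miR-100-5p, miR-99b-5p, miR-125a-5p and let-7a-5p lie right of 0 with their whole interval, and the 12 other pairs cross 0. Pairs with a let-7 mate and pairs of members that are neither cluster nor seed mates were added after the data were seen.

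By seed, the miR-99/100 family summed to 2850 reads (1.41%) on the MBP-MCP resin and 1531 reads (1.37%) on the bare resin, a ratio of 1.02 (0.962 to 1.09). Summing removes any doubt over reads exchanged between miR-99a-5p and miR-100-5p. The miR-125 family summed to 12928 (6.38%) and 7821 (7.02%), a ratio of 0.909 (0.884 to 0.935), and miR-125b-5p gave 80.3% and 83.6% of its reads. Its log2 ratio of −0.14 turned to 0.058 under TMM and 0.14 under DESeq2 size factors. The balance between the families stood 1.13-fold (1.05 to 1.21) towards miR-99/100 in the pulldown, a value that no scaling changes and that miR-125b-5p dominates. Against miR-125a-5p, the deeply read members of miR-99/100 stood below 1, at 0.939 for miR-99b-5p and 0.927 for miR-100-5p (0.824 to 1.04), both within counting error.

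By host cluster, the 3 guide strands of chromosome 19 had ratios within counting error of each other. let-7e-5p, the let-7 miRNA between MIR99B and MIR125A, came to a ratio of 1.04 (0.954 to 1.12) from 1666 and 885 reads. The sequence of let-7e-5p is close to that of the far more abundant let-7a-5p, so reads may be shared between them. This doubt also holds for the values below that include let-7e-5p. The reads of let-7e-5p per read of miR-99b-5p were 1.03 and 1.02, a ratio of 1.01 (0.896 to 1.13). Pairs with a let-7 mate, here and below, were also added after the data were seen. The sum of miR-99b-5p, let-7e-5p and miR-125a-5p was 5838 reads in the pulldown and 3035 in the control, a ratio of 1.06 (1.01 to 1.11). The members of the other clusters, miR-99a-5p, miR-100-5p and miR-125b-5p, summed to 11606 and 7202, which is 0.886 of the control share (0.861 to 0.913). Of that sum miR-125b-5p made up 89.4% and 90.8%, so it is in the main a value of miR-125b-5p. Its log2 ratio of −0.17 turned to 0.021 under TMM and 0.10 under DESeq2 size factors. The balance of the sums stood 1.19-fold (1.13 to 1.26) towards chromosome 19 in the pulldown, whatever the scaling. The sums are unlike, because only that of chromosome 19 includes a let-7 miRNA, and miR-125b-5p dominates the balance. The balance of miR-100-5p with miR-99b-5p and with miR-125a-5p was within counting error.

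Of the let-7 mates of the other clusters, let-7a-5p, with 30194 and 16371 reads, had a ratio of 1.01 (0.995 to 1.03), and its reads per read of miR-100-5p were 25.1 in both libraries (ratio 1.0, 0.906 to 1.10). Against miR-125b-5p it stood 1.16-fold higher (1.12 to 1.21). let-7c-5p, from the cluster of miR-99a-5p, came to a ratio of 0.808 (0.645 to 1.02) from 194 and 132 reads. Its balance against miR-99a-5p (0.622, 0.268 to 1.36) and miR-125b-5p (0.926, 0.737 to 1.17) did not differ between the resins beyond counting error. The sequence of let-7c-5p, like that of let-7e-5p, differs from that of let-7a-5p by few bases, so its reads may be shared with it.

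Opposite arms, the strands of the hairpins that are mostly discarded, were in the table for 4 of 6 hairpins, and 2 of the 4 had fewer than 20 reads in both libraries. miR-99b-3p had 106 and 68 reads (ratio 0.857, 0.626 to 1.18) and miR-100-3p had 23 and 18 (ratio 0.703, 0.363 to 1.38). miR-125a-3p had 7 and 4 reads, and miR-125b-1-3p, of the chromosome 11 hairpin, had 9 and 6. All 4 ratios were below 1 with total reads, as were 60.2% of the 161 miRNAs, and all 4 intervals included 1. The log2 ratio of miR-125a-3p lay 0.11 above the median of the 161.

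The guide strand outnumbered the opposite arm in each of these hairpins. There were 15.3 reads of miR-99b-5p per read of miR-99b-3p on the MBP-MCP resin and 12.8 on the bare resin, and 52.3 and 36.2 of miR-100-5p per read of miR-100-3p. miR-125a-5p and miR-125b-5p had 364 and 1153 reads per read of miR-125a-3p and miR-125b-1-3p in the pulldown library, the second being a guide of both its hairpins. The balance of the arms differed between the resins by no more than counting error in any of the 4. Of the opposite arms of the let-7 mates, let-7a-2-3p had 4 and 0 reads and let-7e-3p 3 and 0, too few to show a difference.

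Likeness to other miRNAs was taken over the 2 libraries alone. In mean log2 RPM the miRNA nearest to miR-99b-5p was its cluster mate let-7e-5p, and the next, miR-9-5p, had a log2 ratio of −0.69. Nearest to miR-100-5p were miR-10a-5p, its relative from the HOX clusters, whose ratio was 1.26 (1.14 to 1.39) from 1306 and 571 reads, and miR-27b-3p, with a log2 ratio of −0.46. miR-10a-5p and miR-100-5p thus stood at like levels, and miR-10a-5p had the highest ratio of those 27 deeply read miRNAs. miR-92a-3p, which missed that minimum with 452 control reads, had a higher ratio of 1.61. Nearest to miR-125a-5p were miR-31-5p (log2 ratio −0.27) and miR-103a-3p (0.11), and nearest to miR-125b-5p were let-7b-5p (0.31) and miR-21-5p (−0.08). Nearest to miR-99a-5p were miR-532-3p, with 17 reads in each library, and let-7i-3p, with 15 and 18. In log2 ratio, among named miRNAs with at least 200 reads in each library, the nearest was let-7a-5p to miR-100-5p, miR-30a-3p to miR-99b-5p, miR-30a-5p to miR-125a-5p, miR-24-3p to miR-125b-5p and miR-10a-5p to miR-99a-5p.

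The seeds were searched in the 10 annotated SNHG15 transcripts of GENCODE 29, which are 505 to 3116 bases long, on the transcript strand only. The sources used here do not name the isoform that was tagged. The 7-base match to the miR-99/100 seed, TACGGGT, was in 0 of 10 transcripts. It is rare: 0.956% of 941 lincRNA transcripts within 10% of the length of a 982-base SNHG15 transcript hold it. The 7-base match to the miR-125 seed, CTCAGGG, was in 0 of 10 as well, against 13.0% of those lincRNA transcripts. For comparison, 5.61% of the 321 named miRNAs with a sequence had a 7-base match in that 982-base transcript.

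Matches to bases 2 to 7 alone, which lie inside the 7-base motifs, were also searched. ACGGGT was in 0 of 10 transcripts (4.78% of the lincRNA transcripts) and TCAGGG in 1 of 10 (28.3%). The lincRNA transcripts are near 982 bases long, and the 10 transcripts of the SNHG15 gene are 505 to 3116. These shares, and those for the 7-base matches, are therefore not directly comparable. The TCAGGG match lies at bases 1959 to 1964 of the longest SNHG15 transcript, which has 3116 bases. It is shown, in capitals, as the single place where a member's 6-base seed match occurs.
SNHG15, longest transcript: caaaccagcagaTCAGGGtttgatgccagg
The base before it does not extend the pairing to base 8 of miR-125a-5p or miR-125b-5p. A missing match says only that these letters are not in these transcripts.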

How the data were processed

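Small RNA from 2 resins, 1 library each, was extracted (mirVana) and made into libraries (QIAseq miRNA kit), per the labels. The build is GRCh38, per the submitters' processing notes, and the sources used here name no aligner, annotation release or use of molecular identifiers. The authors deposited raw read counts of 407 miRNAs, 50 of them numbered predictions. Their deposited RPM (reads per 1000000 of the library, headed Tpm) differs from reads over the column sum by at most 0.0484%, and their log2 fold change from the log2 ratio of those shares by at most 0.000625. Each p-value and adjusted p-value comes from the authors' deposited table, made with edgeR per the file names; its dispersion is not stated there. There were 0 columns of other samples.

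RPM, ratios and exact (Clopper-Pearson) 95% intervals were computed from the counts with scipy 1.17.1, and the ratio of 2 miRNAs with its exact conditional interval. A prior count of 0.5, in proportion to library size, was added for log2 ratios. With 1 library per group no p-value was computed; a 2-fold rule was used, for miRNAs that reached 20 reads in either library. Alternatives were edgeR 4.0.16 TMM factors, DESeq2 1.42.0 size factors, other totals, a prior count of 5, a 1.5-fold rule and pooled near-identical members. Named miRNAs were the members, their opposite arms, let-7 mates, miR-10 relatives, any sharing a member's seed, the nearest 2 in level and the nearest 1 in log2 ratio. The interval code was tested on simulated data. The members and lists were chosen with earlier results of these data known. miR-10b-5p, miR-99a-3p, miR-125b-2-3p and let-7c-3p were not among the 407 miRNAs of the count table, so they could not be analysed.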

Additional observations from a re-analysis of the deposited data

How the results depend on the processing

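With 1 library per resin, depth limits what can be read from miR-99a-5p and the opposite arms, and the scaling sets the direction of miR-125b-5p. Of 69 values under other settings 38 stayed within counting error or at the same number, 26 moved and 5 changed sign. The 38 include the entries for no minimum of reads, which could not change because all 5 members reach 20 reads in a library. With TMM factors, DESeq2 size factors and totals without the 5 most abundant miRNAs, in that order, the median log2 ratio of the members was 0.23, 0.32 and 0.16. The number of members with an interval above equality was 3, 4 and 3, and below equality 0, 0 and 1, while of the 27 deeply read miRNAs 16, 19 and 14 lay above and 6, 5 and 8 below. The log2 ratio of the miR-99/100 sum was 0.23, 0.31 and 0.16, that of the miR-125 sum 0.058, 0.14 and −0.013, that of the chromosome 19 sum 0.28, 0.36 and 0.21, and that of miR-99a-5p, miR-100-5p and miR-125b-5p together 0.021, 0.10 and −0.050. The log2 ratio of miR-125b-5p turned to 0.081 with DESeq2 size factors. These shifts follow from the factors, which multiply all miRNAs of a library alike. Totals of named miRNAs only, a prior count of 5, the 1.5-fold rule and the sums of near-identical members moved no value by more than counting error and no count. The ratios between 2 miRNAs have no scaling term and were recomputed with a prior count of 5 only. No paired analysis was possible because each resin has 1 library.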
